A study of Mus musculus with 5 samples.

Results

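Peritubular myoid cells form the thin contractile sleeve that wraps each seminiferous tubule of the testis. They hold the actin, myosin and calponin of smooth muscle, squeeze the tubule to move sperm and fluid along it, and lay down, together with Sertoli cells, the basement membrane on which the germ cells rest. They also answer hedgehog signals from Sertoli cells, and release growth factors for spermatogonial stem cells.

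Here the cells were found in single-cell RNA profiles of whole mouse testis in which spermatogenesis had been synchronized, with 1 library at each of 0, 144, 350.4, 556.8 and 763.2 h. The 0 h library is titled as the control, and the later libraries lie at successive returns of the same stages of the tubule cycle. The labels call all 5 synchronized, the 0 h library included, and give no strain, age, synchronizing agent or number of animals. Before the cells were freed with trypsin, tubules treated with collagenase were let settle several times and the fluid above them was poured off.

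A barcode counted as a peritubular myoid cell, called a member here, when at least 3 of the smooth muscle genes Acta2, Myh11, Tagln, Cnn1 and Actg2 were detected and together made up at least 0.3% of its UMIs (unique molecular identifiers, the tags that count captured RNA molecules). It also had to hold at least 1000 UMIs and 500 genes, under 20% mitochondrial UMIs, at most 1 UMI of the pericyte gene Rgs5, and at most 1 UMI of the Sertoli genes Sox9 and Cldn11 together. The rule left 1259 members of 39650 barcodes within the UMI, gene and mitochondrial limits. Values given below as 5 numbers are in time order, from 0 to 763.2 h.

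There were 656, 410, 102, 49 and 42 members. They made up 8.32%, 6.12%, 2.10%, 0.561% and 0.366% of the barcodes within the limits. In the same order, the exact binomial 95% intervals ran from 7.72 to 8.95, from 5.56 to 6.72, from 1.72 to 2.55, from 0.415 to 0.741 and from 0.264 to 0.494. Each share was lower than the one before it, and the intervals did not overlap up to 556.8 h. With at least 4 rule genes detected, in place of 3, the order of the first 2 turned: 4.40% at 0 h lay below 5.80% at 144 h. A share falls when germ cells are added as well as when fewer myoid cells are captured, and these cannot be told apart here. Intervals in this text cover counting error only, since each time had 1 library. Differences between times were not tested and had no replicates, so they describe these 5 libraries.

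**Figure D1:**
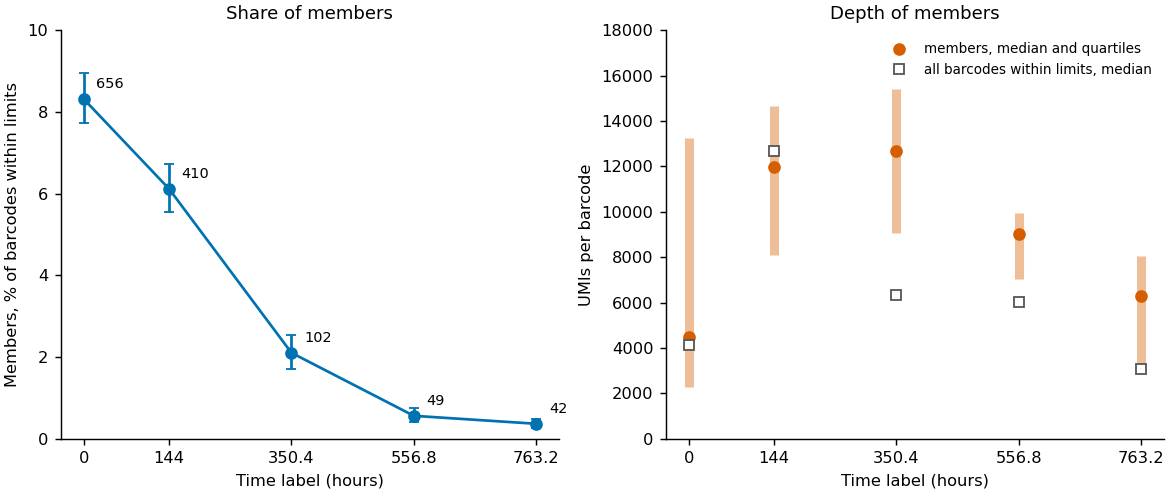
Left, the share of barcodes within the limits that passed the myoid rule at each time, in percent, with exact 95% intervals and the number of members. Right, UMIs per barcode, with the median (filled circles) and quartiles (bars) of the members and the median of all barcodes within the limits (open squares). The share went from 8.32% at 0 h to 0.366% at 763.2 h, and the 0 h members were the shallowest, with a median of 4504.5 UMIs.

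Depth differed between the times. Members held a median of 4504.5, 11959, 12683.5, 9030 and 6298 UMIs, against 4132, 12684, 6320.5, 6031 and 3075 over all barcodes within the limits. At 0 h 350 of the 656 members (53.4%) lay under 5000 UMIs, against 22, 14, 6 and 15 members later. Summed over members the libraries held 5030281, 4997100, 1254166, 432682 and 251718 UMIs, so counting intervals are widest in the last 2 libraries. There 30 UMIs correspond to 69.3 and 119 CPM, so levels far below these rest on few UMIs. Over all barcodes the libraries held between 75578147 and 118147393 UMIs. Between 11 and 37 barcodes were shared by any pair of libraries (0.148% to 0.453% of the smaller one), and no member was shared.

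The rule itself used the 5 smooth muscle genes, so their levels are a description. Their summed share had a median of 0.917%, 1.88%, 1.72%, 1.56% and 1.24% of a member's UMIs, and all 5 genes were detected in 135, 288, 70, 38 and 30 members. Just inside the limit, from 0.3% to 0.4%, lay 78, 2, 0, 2 and 0 members. Just outside it, from 0.2% to 0.3%, lay 84, 3, 2, 3 and 5 barcodes. The edge of the rule was thus densest in the shallow 0 h library. The Rgs5 limit removed 2, 4, 5, 3 and 1 barcodes and the Sertoli limit 64, 21, 1, 0 and 0. Acta2, smooth muscle actin, made up 7415, 12983, 12374, 10578 and 8859 CPM (CPM is the usual scale of sequencing counts, the UMIs of a gene divided by all UMIs of the members in parts of 1e6).

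Genes outside the rule were then ranked against all other barcodes. Of 1138 genes with at least 30 UMIs in the members of every library, the 15 that stood furthest above all other barcodes in their weakest library were Fbxl22, Tnnt2, Tmem204, Col4a3, Ltbp2, Lmod1, Itgbl1, Prkcb, Tpm2, Col4a4, Tspan2, Nexn, Eln, Fgl2 and Asb2. Tnnt2, a troponin of striated muscle, stood at 434, 929, 915, 703 and 739 CPM and never under 40.6 times the level of the other barcodes. Lmod1, an actin nucleator of smooth muscle, stood at 397, 491, 565, 541 and 619.7 CPM, and Tpm2, a tropomyosin, at 1621, 2485, 3269.9, 3730.2 and 2880.2 CPM. Fbxl22, an F-box protein of muscle sarcomeres, was never under 41.7 times the other barcodes. At 556.8 h 4 members, described below, carried markers of vessel mural cells (pericytes and smooth muscle of vessels). Fbxl22 and Lmod1 stood at 629 and 909 CPM in them, against 426 and 500 CPM in the other members. Tnnt2 stood at 23.3 against 777 CPM. A high ratio alone thus does not tell myoid cells from vessel muscle. Members were chosen by expression, so these ratios describe the cells and test nothing.

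Markers of other cell types were also found in the members and are given before the comparisons. Macrophage markers summed to 203, 4.40, 3.99, 2.31 and 0 CPM in the members, with 10 of 10 detected at 0 h and 0 of 10 at 763.2 h. Haemoglobin and Alas2, markers of red blood cells, summed to 2558, 14.2, 3.19, 0 and 0 CPM. Sertoli markers summed to 1803, 1212, 1088, 707 and 953 CPM, led by the protease gene Ctsl at each time, while Amh, Wt1, Fshr and Dhh were at 0 in the last 2 libraries. The other barcodes held 12291, 11262, 1614, 546 and 402 CPM of them, less than the members only in the last 2 libraries. At 0 h 70 members held over 1% Sertoli markers, 12 over 1% macrophage markers and 19 over 1% red blood markers. These markers stood highest in the shallow 0 h members: under 5000 UMIs Sertoli markers summed to 4938 CPM and macrophage markers to 867 CPM, against 1115 and 57.0 CPM in deeper members. Stromal markers, which include Col1a1 and Dcn, summed to 3805, 3743, 2724, 1729 and 1442 CPM, and 36, 1, 0, 0 and 0 members held over 1% of them. They summed to 1132, 824, 35.2, 9.71 and 16.8 CPM in the other barcodes, below the members at each time. Endothelial markers summed to 26.2, 24.0, 10.4, 37.0 and 0 CPM. Vessel mural markers summed to 173, 248, 340, 633 and 377 CPM, with 14, 14, 15, 14 and 11 of 15 detected. In the other barcodes these markers summed to 38.7, 50.9, 45.7, 178 and 210 CPM, below the members at each time. Leydig markers stood between 322 and 611 CPM, all of it at 556.8 h from Aldh1a1 and Fabp3, with the steroid enzyme genes Cyp11a1, Cyp17a1 and Hsd3b1 at 0 from 350.4 h on. The other barcodes held 1178, 697, 84.6, 7.07 and 43.6 CPM of them, less than the members from 350.4 h on. Whether such markers came from the members themselves or from other cells was not tested.

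Germ cell markers stood highest in the last 2 libraries. The 36 germ markers summed to 377, 800.3, 1736, 20033 and 18465 CPM in the members, against 1365, 4205, 14813, 52288 and 56948 CPM in all other barcodes. Spermatid genes made up 15862 CPM of this at 556.8 h and 14985 CPM at 763.2 h. At 556.8 h 22 of 49 members, and at 763.2 h 23 of 42, held over 1% spermatid markers. Every member at these times held germ marker UMIs, at a median of 1.37% and 1.48% of its UMIs. The part of these germ transcripts in the gene differences below was not tested. Single members could dominate: at 556.8 h 1 of 49 members held 45.5% of the Prm1 UMIs (Prm1 encodes a protamine that packs sperm DNA).

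Genes were compared where the higher library held at least 30 UMIs and 50 CPM over its members, and called where the ratio reached 2 or fell to 0.5. The 8 genes of the rule were left out. From 0 to 144 h 141 of 3229 genes (4.37%) were called higher and 79 (2.45%) lower. From 144 to 350.4 h 110 of 3340 genes (3.29%) were higher and 63 (1.89%) lower. The step to 556.8 h stood apart, with 600 of 3414 genes (17.6%) higher and 163 (4.77%) lower. The last step had 63 of 2282 genes (2.76%) higher and 118 (5.17%) lower. Between the ends of the series, 763.2 against 0 h, 510 of 2733 genes (18.7%) were higher and 532 (19.5%) lower. These shares are the background against which each gene group is read.

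The level of the called genes against the other barcodes differed by step. Of the 141 genes higher at 144 h, 100 stood at least 2 times above the other barcodes of that library. Of the 600 higher at 556.8 h only 22 did (3.67%), and 573 (95.5%) stood below the other barcodes. One setting took the germ marker level of the members, 38.3% of that in the other barcodes at 556.8 h, as their share of free RNA (RNA from broken cells in the droplet fluid). With that RNA subtracted, 58 of 2426 genes (2.39%) were higher at 556.8 h, and 189 of 1851 (10.2%) at 763.2 against 0 h. Germ transcripts set this share, so fewer higher genes of germ cells follow from the setting itself. The source of the called genes was not tested. The median log2 ratio over all measured genes was 0.11, -0.01, -0.17 and -0.15 over the 4 steps and -0.26 between the ends. Scaling by the median of gene ratios moved all log2 ratios down by 0.15 at 144 against 0 h and by 0.28 at 763.2 against 0 h. It gave 99 genes higher and 101 lower of 3058 at 144 h, and 447 and 775 of 2921 between the ends.

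Among the 4 steps, contractile genes outside the rule were called higher only in the first 2. Of 23 measured in the step from 0 to 144 h 3 were called higher and 0 lower, followed by 3 and 0 of 26, 0 and 0 of 25, and 0 and 1 of 24 in the later steps. Over all genes 4.37%, 3.29%, 17.6% and 2.76% were called higher in the 4 steps, and 2.45%, 1.89%, 4.77% and 5.17% lower. In the first 2 steps the contractile share called higher was above that of all genes, on 3 genes each. Their median log2 ratios were 0.39, 0.20, 0.00 and -0.27. Between the ends 3 of 23 were higher and 1 lower, with a median of 0.51 (0.22 under the median-of-ratios scaling) beside -0.26 for all genes. Over the 4 steps the medians of all genes were 0.11, -0.01, -0.17 and -0.15.

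Called higher were Des, Myl9 and Tns1 at 144 h and Des, Pdlim5 and Synm at 350.4 h, and Myocd was called lower at 763.2 h. Des, which encodes the muscle intermediate filament desmin, stood at 64.6, 148, 362, 622 and 497 CPM. It was higher at each time up to 556.8 h. Without 4 members described below the 556.8 h level was 487 CPM, so the lower level at 763.2 h rests on them. Its ratio between the ends was 7.69 times (95% interval 6.20 to 9.48). Synm, which encodes synemin, a partner of desmin, stood at 12.7, 23.6, 124, 217 and 234 CPM. From 144 to 350.4 h the ratio was 5.23 times (95% interval 4.09 to 6.71). Tns1, which encodes tensin, a link from actin to integrins, stood at 87.9, 230.1, 407, 458 and 584 CPM and was higher at each time than at the one before. Its ratio between the ends was 6.65 times (95% interval 5.48 to 8.03).

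Myl9, the regulatory light chain of smooth muscle myosin, followed another course. It stood at 2465, 5912, 5177, 4495 and 3738 CPM, lowest at 0 h and highest at 144 h. The step to 144 h was 2.40 times (95% interval 2.35 to 2.45). The rule genes Cnn1 (calponin, 174 to 466 CPM) and Actg2 (enteric actin, 148 to 342 CPM) were also lower at 0 h than at 144 h. Depth differed between these libraries as well. At 0 h the 5 rule genes summed to 8492 CPM in members under 5000 UMIs and to 11758 CPM in deeper ones, and the part of depth in the difference was not tested.

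Several core contractile genes were nearly level. Tpm1, a tropomyosin, stood at 2522, 2285, 2624, 2630.1 and 2654 CPM, with a ratio between the ends of 1.05 times (95% interval 0.972 to 1.14). Mylk, the kinase that switches on smooth muscle myosin, stood at 1594, 2127, 2268, 1971 and 1863 CPM, all 5 libraries within 1.5-fold. Cald1, caldesmon, stood at 1258, 1309, 1861, 2387 and 2264 CPM and was higher in the later libraries without reaching 2-fold. Cnn2, a calponin found in many cell types, went the other way at 548, 771, 533, 391 and 318 CPM. Myocd, the coactivator that drives smooth muscle genes together with Srf, stood at 63.0, 39.0, 71.0, 80.9 and 27.8 CPM. It was the only contractile gene called lower in a step, at 0.344 times (95% interval 0.129 to 0.785) from 556.8 to 763.2 h, and this rests on 7 UMIs at 763.2 h. Srf itself stood at 52.1, 66.0, 54.2, 46.2 and 35.8 CPM.

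**Figure D2:**
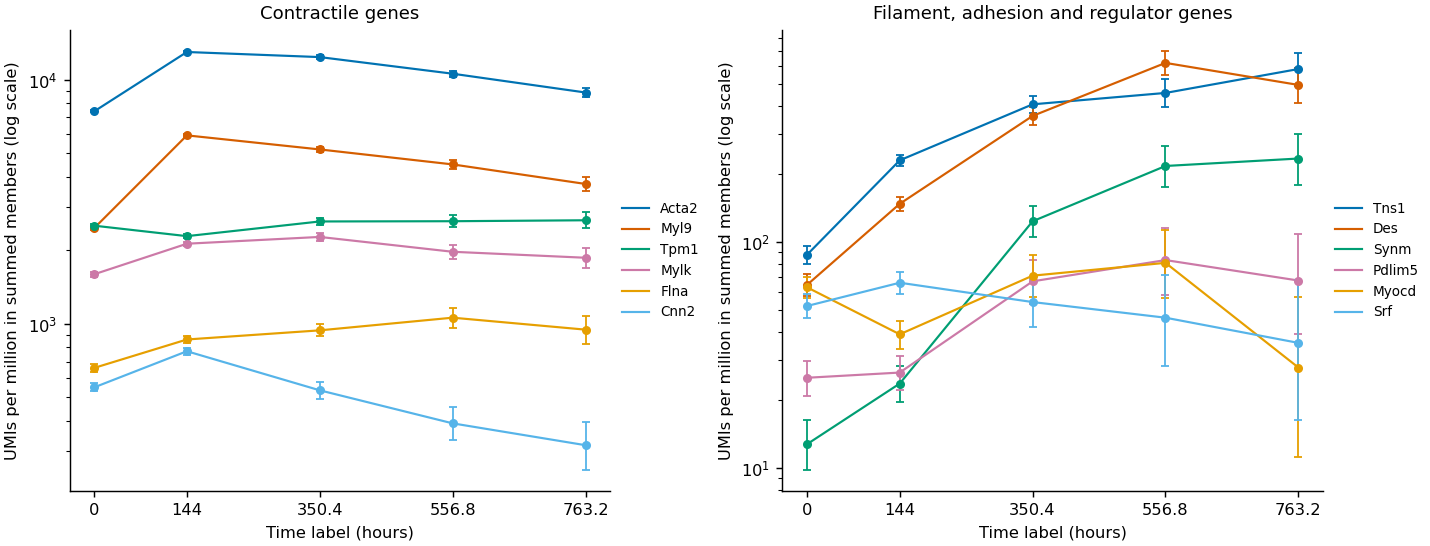
Levels of contractile genes in the members at each time, in CPM of summed UMIs on log10 axes with exact 95% counting intervals. Left, Acta2, Myl9, Tpm1, Mylk, Flna (filamin, an actin crosslinker) and Cnn2; right, filament, adhesion and regulator genes, of which Des, Synm and Tns1 stood at 64.6, 12.7 and 87.9 CPM at 0 h and at 497, 234 and 584 CPM at 763.2 h.

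Smooth muscle genes are known to be switched on by the factor Srf through a short element called the CArG box. The 250 bases before each transcription start, from the RefSeq promoter table of build GRCm38.p6, were searched for the exact consensus of this box, which reads alike on both strands. Of the contractile list and rule genes 31 of 37 were in the table, and 7 of their 37 start windows (18.9%) held a box, against 482 of 32851 windows (1.47%) of all genes. The 6 genes with a box were Cnn2, Ldb3, Myl6, Myl9, Srf and Vcl. The Ldb3 windows counted here overlap and hold the same box, so it was counted more than once. The list was drawn up from muscle genes, Srf included, so its share describes the list. Among the 15 genes that set members apart, 11 matched, and Asb2 and Fbxl22 held one. A match describes these letters only. Of these windows, 4 are printed 5′ to 3′ on the gene's strand to show where the box sits, with the box in capitals: Myl9 and Cnn2, contractile genes that both peaked at 144 h, and Fbxl22 and Asb2, found by their levels alone. They lie at chr2:156775214-156775463 (Myl9, plus strand), chr10:79988350-79988599 (Cnn2, plus strand), chr9:66514594-66514843 (Fbxl22, minus strand) and chr12:103356002-103356251 (Asb2, minus strand).
Myl9: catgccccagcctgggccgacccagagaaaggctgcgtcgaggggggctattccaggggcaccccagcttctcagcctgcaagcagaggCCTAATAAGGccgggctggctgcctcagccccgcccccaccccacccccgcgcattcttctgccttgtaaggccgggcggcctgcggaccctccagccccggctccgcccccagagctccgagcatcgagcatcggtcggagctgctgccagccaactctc
Cnn2: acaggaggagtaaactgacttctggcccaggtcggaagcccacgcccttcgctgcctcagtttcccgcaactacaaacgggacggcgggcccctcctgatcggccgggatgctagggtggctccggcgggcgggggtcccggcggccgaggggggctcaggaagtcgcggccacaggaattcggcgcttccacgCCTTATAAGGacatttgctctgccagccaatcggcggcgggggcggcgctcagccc
Fbxl22: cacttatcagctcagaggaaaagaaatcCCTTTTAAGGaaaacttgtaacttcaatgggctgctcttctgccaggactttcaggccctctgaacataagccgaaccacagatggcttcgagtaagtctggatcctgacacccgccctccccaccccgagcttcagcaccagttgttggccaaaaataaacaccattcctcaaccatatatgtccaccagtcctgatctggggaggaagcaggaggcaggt
Asb2: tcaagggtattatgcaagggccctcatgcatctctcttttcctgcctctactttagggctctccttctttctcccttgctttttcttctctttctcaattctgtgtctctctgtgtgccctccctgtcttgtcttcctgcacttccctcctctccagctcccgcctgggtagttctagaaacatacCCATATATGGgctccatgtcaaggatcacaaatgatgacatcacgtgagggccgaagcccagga
The box starts 161 bases before the transcription start in Myl9, 56 in Cnn2, 222 in Fbxl22 and 64 in Asb2. Fbxl22 stood at 498, 653, 596, 446 and 393 CPM and Asb2 at 215, 409, 234, 171 and 207 CPM.

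The list of calcium handling and channel genes held no call. None of its 9 genes measured in each of the first 3 steps was called, nor any of 7 in the last step or of 8 between the ends. Casq2, a calcium store protein of muscle, stood at 279, 402, 392, 268 and 326 CPM. Atp2a2, the calcium pump of the sarcoplasmic reticulum, stood at 168, 187, 249.6, 319 and 270.1 CPM. Cav1, the coat protein of caveolae, stood at 180.3, 236, 243, 257 and 234 CPM. None of these reached 2-fold between neighbouring times. The list median between the ends was 0.30, and -0.06 under the median-of-ratios scaling.

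Few receptors for contractile signals were deep enough to compare, 3 in each of the first 3 steps, 0 in the last and 2 between the ends. Ednra, the receptor for endothelin, which makes myoid cells contract, stood at 241, 114, 141, 85.5 and 103 CPM and was highest at 0 h. Its ratio at 144 against 0 h was 0.475 times (95% interval 0.429 to 0.525). Gucy1a3, a subunit of the nitric oxide receptor that relaxes smooth muscle, stood at 181, 118, 100.5, 62.4 and 35.8 CPM, lower at each time than before. Both were called lower between the ends. Lpar1, a receptor for lysophosphatidic acid, stood at 70.6, 80.6, 164, 78.6 and 91.4 CPM, highest at 350.4 h, and was called higher in the step to that time and lower in the step after it.

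The matrix genes of the interstitial collagen network were lower late in the series. Of this list 1 of 29 was called higher and 4 lower at 144 h, then 0 and 1 of 27, 0 and 4 of 27, and 0 and 2 of 20. Between the ends 0 of 27 were higher and 12 lower, with a median log2 ratio of -0.76 beside -0.26 for all genes, and -1.04 under the median-of-ratios scaling. The stromal markers given above went from 3805 to 1442 CPM. They share Col1a1, Dcn, Lum and Ogn with this list, and Col1a1 alone made up 1595 of the 3805 CPM. Their sum is thus no separate measure, and the part of stromal cells in this difference was not tested. At 0 h 5 of the 656 members held 29.1% of the Col3a1 and 22.3% of the Col1a1 UMIs. The first step of the list had a median of 0.02, which took the other sign under 9 other settings.

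The fibrillar collagens were lowest at the end of the series. Col1a1, a chain of type I collagen, stood at 1595, 1229.9, 872, 518 and 385 CPM, lower at each time than before. Its ratio between the ends was 0.242 times (95% interval 0.196 to 0.295). Col1a2 stood at 2561, 2078, 2038, 1211 and 1092 CPM and Col3a1, of type III collagen, at 1187, 786, 856, 739.6 and 477 CPM. Col1a2 was lower at each time than before, while Col3a1 stood slightly higher at 350.4 h than at 144 h. Mgp, a matrix protein that holds back calcification, had a steep course, at 1919.8, 1299, 805, 372 and 187 CPM. At 763.2 h it was 0.0973 times (95% interval 0.0714 to 0.129) of its 0 h level.

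Fibre-associated genes followed. Fbn2, the fibrillin of young tissue, stood at 256, 195, 105, 53.2 and 35.8 CPM and Fbn1, the adult one, at 249, 204, 199, 104 and 95.3 CPM. Mfap2, a microfibril protein, stood at 285, 266, 132, 55.5 and 51.6 CPM. Fn1, fibronectin, stood at 195, 56.8, 35.9, 60.1 and 11.9 CPM, already 0.291 times (95% interval 0.254 to 0.332) at 144 h, and its 26 UMIs at 556.8 h came from 2 members, 20 of them from 1. Eln, elastin, differed in course at 929, 1698, 1349, 1343 and 596 CPM, highest at 144 h and lowest at 763.2 h. Dcn (decorin, 455, 647, 649, 502 and 477 CPM) and Sparc (osteonectin, 3473, 5100.0, 5978, 4248 and 3401 CPM) were not called in any comparison.

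Basement membrane genes were called between the ends at about the share of all genes, which was 18.7% higher and 19.5% lower. In time order of the steps 1 of 18 was higher and 0 lower, then 1 and 0 of 18, 2 and 1 of 20, 0 and 2 of 18, and between the ends 3 and 3 of 18 with a median log2 ratio of -0.07. The 2 higher at 556.8 h and the 2 lower at 763.2 h were the same genes, Bcam and Col18a1. At 556.8 h 33 of the 34 Col18a1 UMIs came from 4 members set apart below, and 5 members held 59.1% of the Bcam UMIs. Col4a3 and Col4a4, the type IV collagen chains that mark mature basement membranes of kidney and testis, stood at 868, 941, 1329, 968 and 1005 and 2172, 2129, 2746, 1800.4 and 2419 CPM. Neither was called in any step. The Col4a4 ratio between the ends was 1.11 times (95% interval 1.02 to 1.21). Col4a1 and Col4a2, the chains of most basement membranes, stood at 1711, 1284, 1635, 1047 and 918 and 872, 660.2, 1001, 730.3 and 599.9 CPM.

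Among the laminins and their receptors single members differed. Lamb2, a laminin chain of mature basement membranes, stood at 71.6, 239.5, 264, 236 and 318 CPM and was called higher in the step to 144 h, at 3.35 times (95% interval 2.97 to 3.78). Lamb1, the chain of earlier membranes, stood at 459.6, 395, 303, 217 and 175 CPM, lower at each time than before. Itga1, a collagen-binding integrin, stood at 39.2, 63.6, 149, 171 and 191 CPM and was 4.87 times (95% interval 3.47 to 6.70) of its 0 h level at 763.2 h. Itga9, another integrin, stood at 40.8, 50.8, 74.2, 111 and 131 CPM. Col15a1, a collagen that ties basement membranes to fibrils, was lowest in the last 2 libraries, at 116, 116, 71.8, 18.5 and 7.95 CPM.

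Enzymes that cut the matrix were mostly lower and one of their inhibitors higher. In the steps 2 of 11 were higher and 0 lower, 1 and 3 of 12, 0 and 3 of 10, and 0 and 2 of 8. Between the ends 1 of 10 was higher and 6 lower, with a median of -1.29 beside -0.26 for all genes. Of all genes 18.7% were higher and 19.5% lower there. Timp3, an inhibitor bound to the matrix, stood at 295, 434, 726, 855 and 822 CPM and was 2.79 times (95% interval 2.40 to 3.22) between the ends. Mmp2, a gelatinase, stood at 129, 153, 62.2, 11.6 and 15.9 CPM, and the ratio in the step to 556.8 h was 0.186 times (95% interval 0.0587 to 0.452). Adamts5, which cuts proteoglycans, stood at 554, 546, 545, 231 and 183 CPM, level until 350.4 h and lower from then on. Htra3, a secreted serine protease, peaked at 144 h at 124, 353, 142, 74.0 and 47.7 CPM.

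**Figure D3:**
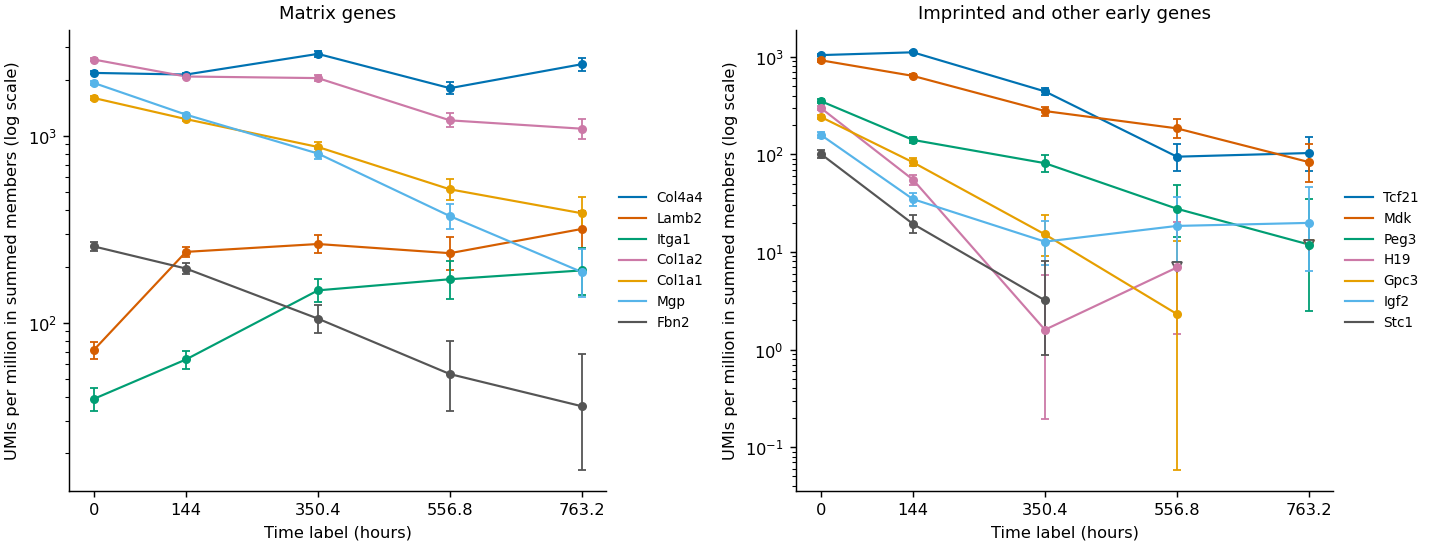
Matrix genes (left) and genes of early growth (right) in the members at each time, in CPM on log10 axes with exact 95% counting intervals. Open triangles mark libraries with 0 UMIs and are drawn at the level of 3 UMIs. Mgp went from 1919.8 CPM at 0 h to 187 CPM at 763.2 h, and H19 from 299 CPM to 0.

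Imprinted growth genes, which are known to be active before and shortly after birth and then fade in many organs, stood out on the lower side early on. At 144 against 0 h 0 of 12 were higher and 8 lower, with a median log2 ratio of -1.21 beside 0.11 for all genes. The later steps gave 0 and 2 of 7, 0 and 1 of 5, and 0 and 0 of 3, and the ends 0 and 9 of 12 with a median of -2.74. With so few UMIs in the late members, fewer genes could be measured at each step.

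Each of the leading genes was highest at 0 h. Igf2, insulin-like growth factor 2, stood at 159, 34.8, 12.8, 18.5 and 19.9 CPM and was 0.219 times (95% interval 0.185 to 0.259) at 144 against 0 h. H19, the noncoding RNA beside it in the genome, stood at 299, 55.2, 1.59, 6.93 and 0 CPM and was at least 25.1-fold lower at 763.2 than at 0 h, with 3 UMIs standing in for 0. In members thinned to 1000 UMIs each, H19 was detected in 15.1, 4.63, 0, 0 and 0% of them. Dlk1, a Notch-like surface protein of immature cells, stood at 109, 5.60, 0, 0 and 0 CPM, though macrophage and Sertoli markers were also highest at 0 h and Dlk1 stood higher in the other barcodes there (286 CPM). Meg3, the noncoding RNA linked to Dlk1, stood at 261, 68.2, 3.19, 0 and 0 CPM. Peg3, a paternally expressed zinc finger gene, stood at 352, 141, 81.3, 27.7 and 11.9 CPM, lower at each time than before. Not every imprinted gene followed: Sgce, a sarcoglycan, stood at 65.6, 87.9, 61.4, 57.8 and 51.6 CPM and Ndn, necdin, at 154, 212, 172, 116 and 91.4 CPM.

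Stromal barcodes were set beside the members. This comparison set of stromal barcodes, with at least 3 of Pdgfra, Dcn, Lum, Col1a1 and Tcf21 and outside the myoid rule, was chosen after the values were seen and held 1116 barcodes at 0 h and 522 at 144 h. From 0 to 144 h H19 was 0.182 times its earlier level in the stromal set and 0.185 times in the members. Igf2 was 0.592 and 0.219 times, Meg3 0.925 and 0.261 times, and Dlk1 0.494 and 0.0513 times. Mgp went opposite ways, at 2.05 times in the stromal set and 0.677 times in the members. Whether these pairs differ was not tested.

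Other secreted or surface genes of early tissue followed the imprinted ones. Gpc3, a glypican that restrains growth, stood at 242, 83.0, 15.1, 2.31 and 0 CPM and was at least 20.3-fold lower at 763.2 than at 0 h. Stc1, the hormone stanniocalcin, stood at 101, 19.4, 3.19, 0 and 0 CPM. Igfbp5, which binds insulin-like growth factors, stood at 73.2, 2.20, 0, 34.7 and 0 CPM, and the 556.8 h value came from members set apart below. Mdk, the growth factor midkine, stood at 922, 638, 278, 185 and 83.4 CPM, lower at each time than before, and was 0.0905 times (95% interval 0.0559 to 0.138) between the ends. C1qtnf3, a secreted relative of complement C1q, stood at 334, 117, 63.8, 53.2 and 47.7 CPM, and Col11a1, a fibril collagen of growing tissue, at 53.1, 14.4, 5.58, 4.62 and 7.95 CPM. Lyz2, lysozyme, was the lowest-ranked gene of the first step at 83.5, 1.60, 0, 0 and 0 CPM. It is a macrophage gene, and 5 members held 70.7% of its 420 UMIs at 0 h.

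Tcf21, a transcription factor of testicular stroma and of the precursors of myoid cells, kept its level for longer. It stood at 1042, 1113, 443, 94.8 and 103 CPM, level from 0 to 144 h and then lower over 2 steps, at 0.397 times (95% interval 0.364 to 0.434) and then 0.214 times (95% interval 0.152 to 0.294). In members thinned to 1000 UMIs it was detected in 53.8, 69.3, 34.3, 6.12 and 4.76%. The thinned shares followed the same order of high early and low late. Islr, a surface protein of mesenchymal cells, at 210.3, 229, 77.3, 37.0 and 43.7 CPM, and Cpxm1, a secreted carboxypeptidase-like protein, at 94.4, 93.9, 28.7, 20.8 and 11.9 CPM, were also called lower at 350.4 h. The membrane proteins Ifitm1, at 147, 68.6, 13.6, 11.6 and 7.95 CPM, and Itm2a, at 309, 159, 57.4, 32.4 and 27.8 CPM, were lower at each time than before. Tbata, a gene of thymus and testis, stood at 88.1, 146, 55.8, 39.3 and 47.7 CPM, and its level in the other barcodes was higher still in the last 2 libraries.

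Cell division genes were sparse. At 144 against 0 h 0 of 10 were higher and 4 lower with a median log2 ratio of -0.89, then 0 and 0 of 6, 2 and 1 of 9, 0 and 2 of 7, and between the ends 0 and 6 of 10. Of all genes 2.45% were lower at 144 h, 17.6% higher at 556.8 h and 19.5% lower between the ends. Mki67, present in dividing cells of any kind, stood at 85.1, 28.6, 35.1, 2.31 and 39.7 CPM in the members, 0.336 times (95% interval 0.276 to 0.407) at 144 against 0 h. A few members carried it: at 0 h 5 of 656 held 65.7% of its 428 UMIs, and at 763.2 h 1 member held 9 of 10. In the other barcodes, where germ cells divide, it stood at 77.9, 107, 242, 42.9 and 44.0 CPM. Birc5 and Ccnb2, the 2 called higher at 556.8 h, stood at 85.5 and 99.4 CPM in the members and at 252 and 173 CPM in the other barcodes, alongside the germ markers.

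Another set of genes was higher from 144 h on and stayed so. Slc38a5, a transporter of glutamine and other amino acids, stood at 109, 470.3, 945, 968 and 1037 CPM. Its step to 144 h was 4.31 times (95% interval 3.92 to 4.74) and its ratio between the ends 9.50 times (95% interval 8.17 to 11.03). Sct, the hormone secretin, stood at 381, 1360.0, 1779, 2043 and 2038 CPM, and the step to 144 h was 3.57 times (95% interval 3.39 to 3.75). In the other barcodes Sct stood at 78.2, 37.6, 1.53, 0.390 and 0.449 CPM, far below the members at each time. In members thinned to 1000 UMIs it was detected in 23.2, 60.7, 70.6, 73.5 and 69.05%, lowest at 0 h and similar from 350.4 h on. From 0 to 144 h the stromal set gave 0.945 times for Sct and 2.10 times for Slc38a5.

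Other genes of secretion and lipid use differed in the same step. Lbp, a protein that binds bacterial lipopolysaccharide, stood at 24.3, 153, 275, 143 and 175 CPM and was 6.31 times (95% interval 5.21 to 7.71) at 144 against 0 h. Acsbg1, which activates fatty acids, stood at 209, 682, 777, 592 and 715 CPM. Car14, a membrane carbonic anhydrase, stood at 18.9, 85.6, 115, 132 and 111 CPM, and Paqr7, a membrane receptor for progestins, at 19.9, 81.0, 87.7, 76.3 and 91.4 CPM. Crispld2, a secreted protein, stood at 53.3, 192, 326, 367 and 274 CPM. Ctxn1, a small membrane protein, stood at 40.8, 169, 149.9, 240.4 and 127 CPM. Of the 5 libraries, the one at 0 h held the lowest level of each of these 6 genes.

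Other genes stood higher at each time from 350.4 h on than at either earlier time. All of those given here except Greb1 were already higher at 144 h than in the earliest library. Tmem37, a calcium channel subunit, stood at 5.96, 36.4, 377, 444 and 477 CPM, with 10.4 times (95% interval 8.71 to 12.4) in the step from 144 to 350.4 h. In members thinned to 1000 UMIs it was detected in 0.610, 2.93, 32.4, 24.5 and 28.6%. Fam89a stood at 1.59, 11.4, 71.8, 206 and 195 CPM and was 2.87 times (95% interval 2.11 to 3.89) from 350.4 to 556.8 h. Gpld1, an enzyme that cuts proteins off their lipid anchors, stood at 7.55, 28.2, 108, 153 and 147 CPM. Endou, an RNA-cutting enzyme, stood at 9.54, 21.8, 67.0, 76.3 and 119 CPM, and Cyb561, an electron carrier of secretory vesicles, at 19.1, 44.8, 65.4, 109 and 159 CPM. Gadd45g, a stress and growth arrest gene, peaked at 556.8 h at 15.3, 59.2, 294, 418 and 171 CPM. Greb1, known as a target of steroid receptors, stood at 4.37, 4.00, 56.6, 25.4 and 43.7 CPM.

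Genes that make, carry and destroy retinoic acid form a short list. In the steps 2 of 4 were higher and 0 lower, then 0 and 0 of 4, 1 and 0 of 5, and 0 and 0 of 5, and between the ends 2 and 0 of 4. Of all genes 4.37% were higher at 144 h, 17.6% at 556.8 h and 18.7% between the ends. Cyp26b1, the enzyme that destroys retinoic acid, stood at 437, 1105, 1418, 1193 and 1164 CPM, with 2.53 times (95% interval 2.41 to 2.66) in the step to 144 h. Rbp4, the carrier of retinol, stood at 77.3, 223, 319, 199 and 250.3 CPM. Aldh1a1, which makes retinoic acid, stood at 168, 267, 299.8, 257 and 309.9 CPM. Rdh11, a retinal reductase called higher at 556.8 h, stood at 92.4 CPM in the members and at 216 CPM in the other barcodes.

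Metabolic genes split by where else they were found. Called were 3 higher and 0 lower of 11 at 144 h, 0 and 0 of 11, 2 and 0 of 13, and 0 and 0 of 11, and 4 and 1 of 12 between the ends. Of all genes 4.37% were higher at 144 h, 17.6% at 556.8 h and 18.7% between the ends, where 19.5% were lower. Ckb, creatine kinase B, which buffers energy in muscle and brain, stood at 255, 622, 1112, 1038 and 1224 CPM and was 4.79 times (95% interval 4.22 to 5.43) between the ends. Glul, glutamine synthetase, stood at 151, 350.2, 443, 407 and 599.9 CPM. For Ckb the other barcodes never passed 25.03 CPM. Slc2a3, the glucose transporter of spermatids and neurons, stood at 125 CPM in the members at 556.8 h and at 476 CPM in the other barcodes. Pfkp, a phosphofructokinase, stood at 78.6 and 126 CPM. Both were called higher there, in members whose germ markers summed to 20033 CPM.

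Signals by which myoid cells are known to support germ cells were mostly faint. In the list 1 of 7 was higher and 1 lower at 144 h, then 0 and 1 of 6, 0 and 1 of 5, 0 and 1 of 2, and 1 and 3 of 5 between the ends. Of all genes 4.37% were higher and 2.45% lower at 144 h, and 18.7% and 19.5% between the ends. Gdnf, the factor that keeps spermatogonial stem cells dividing, stood at 20.9, 22.6, 16.7, 9.24 and 7.95 CPM, under the 50 CPM needed for a comparison. Csf1, another factor for these cells, stood at 29.8, 66.2, 97.3, 57.8 and 83.4 CPM, with 2.22 times (95% interval 1.83 to 2.71) in the step to 144 h. Cxcl12, a chemokine that attracts stem cells, stood at 85.7, 67.2, 23.9, 2.31 and 7.95 CPM, and Igf1 at 246, 334, 335, 173 and 59.6 CPM, both lowest in the last 2 libraries. The Cxcl12 levels there rest on few UMIs. Cx3cl1, a membrane-bound chemokine, stood at 63.4, 112, 163, 94.8 and 135 CPM. Bmp4 stood at 47.1, 85.6, 59.8, 20.8 and 39.7 CPM.

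Steroid and hedgehog genes gave few calls. Nr2f2, a nuclear receptor of stromal and myoid cells, stood at 554, 689, 573, 351 and 362 CPM. Fkbp5, a known target of the glucocorticoid receptor, stood at 60.0, 74.2, 129, 94.8 and 131 CPM and was called higher between the ends. Of the steroid list 1 of 8 was higher and 0 lower, then 0 and 2 of 8, 0 and 1 of 6, 0 and 1 of 4, and 1 and 2 of 7 between the ends. Ptch1, the hedgehog receptor and a readout of the pathway, stood at 342, 407, 449.7, 261 and 290.0 CPM, with 0.849 times (95% interval 0.662 to 1.07) between the ends. Heyl, a target of Notch signals, stood at 92.4, 77.0, 75.7, 78.6 and 15.9 CPM, low at 763.2 h alone, where it rests on 4 UMIs. Its 556.8 h level was 61.6 CPM without the 4 members set apart below. The hedgehog and Notch list gave no call in 7, 5 and 4 genes of the first 3 steps, 0 higher and 2 lower of 3 in the last, and 0 and 2 of 6 between the ends. Beside both lists, 18.7% of all genes were higher and 19.5% lower between the ends.

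In the list of TGF beta, BMP and activin response, 3 of 17 were higher and 1 lower at 144 h, then 0 and 1 of 15, 0 and 1 of 15, 0 and 4 of 11, and 2 and 4 of 15 between the ends. Of all genes 4.37% were higher at 144 h and 5.17% lower at 763.2 h. Between the ends 18.7% were higher and 19.5% lower, near the shares of this list. The 3 higher at 144 h were Id1, Id2 and Id3, inhibitors of differentiation factors that BMP signals switch on. Id3 stood at 214, 659, 423, 321 and 115 CPM, and Id2 at 50.7, 178, 160.3, 189.5 and 23.8 CPM. Both were lowest at 763.2 h. The Id2 level at 556.8 h was 100.1 CPM without the 4 members set apart below. Ltbp2, a matrix protein that binds latent growth factors and elastic fibres, stood at 78.9, 128, 239, 206 and 342 CPM, and Chrdl1, a BMP antagonist, at 50.7, 97.7, 158, 173 and 215 CPM. Ctgf, a matrix signal of contractile cells, stood at 677, 995, 1372, 911 and 1204 CPM, within 2-fold between neighbouring times.

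In the immune list 0 of 10 were higher and 2 lower at 144 h, 0 and 1 of 10, 0 and 1 of 9, 1 and 1 of 9, and 2 and 4 of 9 between the ends. Of all genes 2.45% were lower at 144 h, and 18.7% higher and 19.5% lower between the ends. Ifitm3, an antiviral membrane protein, stood at 127, 245, 475, 418 and 381 CPM, while its neighbour Ifitm2 stood at 607, 426, 310.2, 208 and 143 CPM. Ifitm3 was higher and Ifitm2 lower in each step up to 350.4 h, and both were lower in each step after it. The list median between the ends was 0.14 and took the other sign under 6 other settings.

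A list of genes known to respond to enzymatic dissociation holds immediate early genes, which answer stress within minutes, and also chaperones and metallothioneins. In this list 1 of 21 was higher and 0 lower at 144 h, 8 and 0 of 23 at 350.4 h, 3 and 0 of 23 at 556.8 h (Dnajb1, Mt1 and Mt2, each higher still in the other barcodes), and 0 and 15 of 23 at 763.2 h, where the median log2 ratio was -1.52 beside -0.15 for all genes. Between the ends 5 of 19 were higher (Dnajb1, Hspb1, Klf2, Mt1 and Mt2) and 10 lower, beside 18.7% and 19.5% of all genes.

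Fos, the leading gene of this response, stood at 1223, 1354, 2437, 1331 and 381 CPM. It was highest at 350.4 h and lowest at 763.2 h, with 0.286 times (95% interval 0.228 to 0.356) in the last step. In members thinned to 1000 UMIs Fos was detected in 54.3, 59.0, 53.9, 57.1 and 14.3%. At 763.2 h it was found in 10 of 42 members, and 5 of them held 93.8% of its UMIs. Egr1, another early response factor, stood at 1166, 1017, 1214, 816 and 163 CPM, with 0.1996 times (95% interval 0.141 to 0.276) in the last step. Ier2, an early gene of many cell types, stood at 1102, 1087, 779, 391 and 99.3 CPM, lower at each time from 350.4 h on. Zfp36, which degrades messages of inflammation, stood at 339, 431, 559.7, 395 and 83.4 CPM and Socs3, which shuts off cytokine signals, at 125, 134, 242, 157 and 7.95 CPM.

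At 350.4 h a part of this response was highest. Atf3, a stress factor, stood at 6.96, 6.003, 205, 106 and 0 CPM, with 34.1 times (95% interval 23.3 to 51.6) in the step to 350.4 h. Its 556.8 h level was 35.9 CPM without the 4 members set apart below. Klf2, a factor that also answers to blood flow, stood at 61.2, 104, 582, 476 and 159 CPM, with 5.59 times (95% interval 4.99 to 6.27) in the same step. Cxcl10, a chemokine of the interferon response, stood at 0.596, 1.201, 77.3, 34.7 and 0 CPM, and 5 members held 91.8% of its UMIs at 350.4 h. The metallothioneins Mt1, at 147, 189, 616, 1264 and 584 CPM, and Mt2, at 59.0, 86.2, 116, 404 and 314 CPM, peaked at 556.8 h, where the other barcodes stood at 1659.5 and 982 CPM. Hspb1, a small chaperone of muscle, stood at 264, 524, 914, 1015 and 981 CPM, steady from 350.4 h on. Dusp6, a phosphatase that damps growth factor signals, stood at 42.5, 49.6, 153, 41.6 and 11.9 CPM, high at 350.4 h alone.

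**Figure D4:**
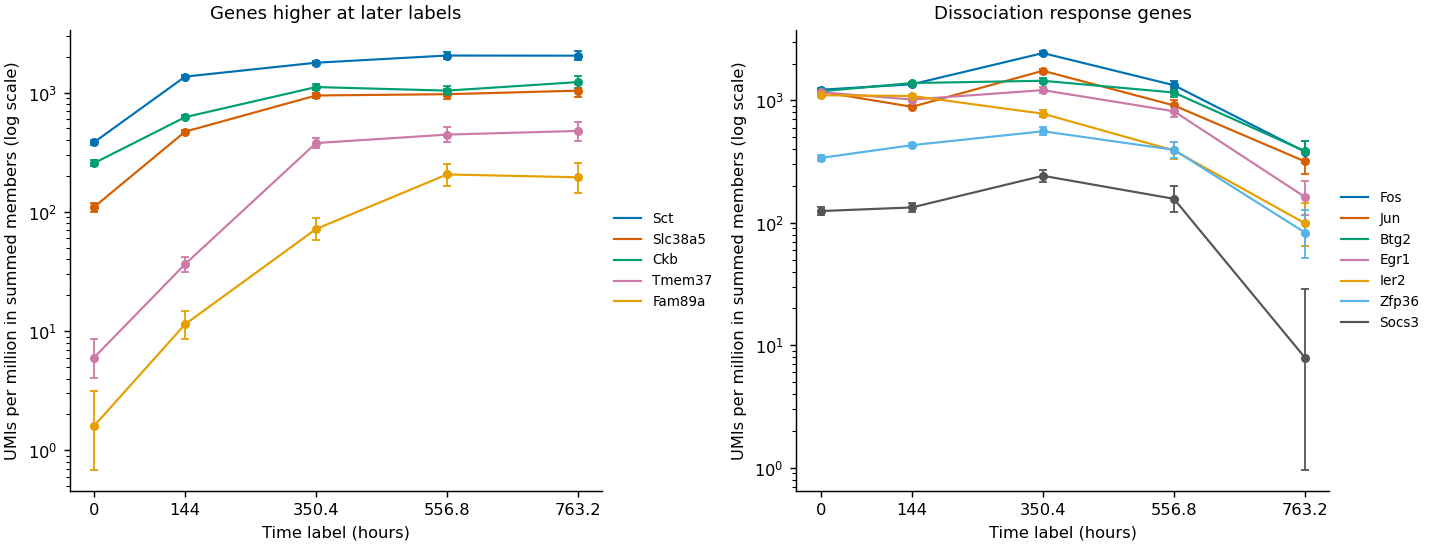
Genes higher from 144 h on (left) and early response genes of the dissociation list (right) in the members at each time, in CPM on log10 axes with exact 95% counting intervals. Slc38a5 and Sct were lowest at 0 h, at 109 and 381 CPM, and Fos and Egr1 lowest at 763.2 h, at 381 and 163 CPM.

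Lars2, the mitochondrial leucyl-tRNA synthetase, had a course of its own, at 472, 87.1, 398, 328 and 822 CPM. It was low at 144 h and highest at 763.2 h, with 2.51 times (95% interval 2.01 to 3.12) in the last step. In the other barcodes it stood at 306, 57.1, 128, 56.3 and 104 CPM, with its lowest levels at 556.8 and 144 h.

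A few members stood apart from the rest. At 556.8 h 4 of 49 members, and at 350.4 h 1 of 102, held at least 5 UMIs of Crip1 and Notch3 together and none of Col4a3, Col4a4 or Tcf21. None did at the other times. The limits were chosen after the values were seen, so what follows is a description. At 556.8 h these 4 members held 236 of the 244 Crip1 UMIs (Crip1 encodes a LIM protein found in smooth muscle of vessels and gut). Markers of vessel mural cells (pericytes and smooth muscle of vessels), Notch3 included, summed to 3588 CPM in them, with 11 of 15 detected, against 308 CPM in the other 45. Myh11 stood at 7945 against 1642 CPM, Tagln at 9716 against 2340 CPM and Des at 1841 against 487 CPM. Sct was at 0 against 2268 CPM, Tnnt2 at 23.3 against 777 CPM and Ptch1 at 23.3 against 287 CPM. Rgs5 gave 1 UMI over the 4, so the rule kept them.

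Several levels at 556.8 h rested on these members. Without them Crip1 went from 564 to 20.5 CPM, Sorbs2, a scaffold of muscle adhesions, from 118 to 23.1 CPM, Col18a1, a vessel collagen, from 78.6 to 2.57 CPM, and the tubulin Tuba1c from 83.2 to 15.4 CPM. The same held for Zfhx3 (83.2 to 20.5 CPM) and Pi15 (76.3 to 20.5 CPM). At 350.4 h the single member of this kind held 114 Crip1 UMIs, against 11 in the other 101 members. Thus 6 of the 8 genes that led the step to 556.8 h rested on 4 members. The other 2, Fam89a (228 CPM without them) and Epas1, the hypoxia factor (92.4 CPM), did not. Sparcl1, a matrix protein of vessels, went from 515 to 179.6 CPM and Fn1 from 60.1 to 0. In the step to 763.2 h 75 of 2159 genes were called lower without them, in place of 118 of 2282. The step to 556.8 h gave 542 higher and 165 lower of 3272, in place of 600 and 163 of 3414. Des at 556.8 h was 487 CPM without them, close to its 763.2 h level of 497 CPM.

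**Figure D5:**
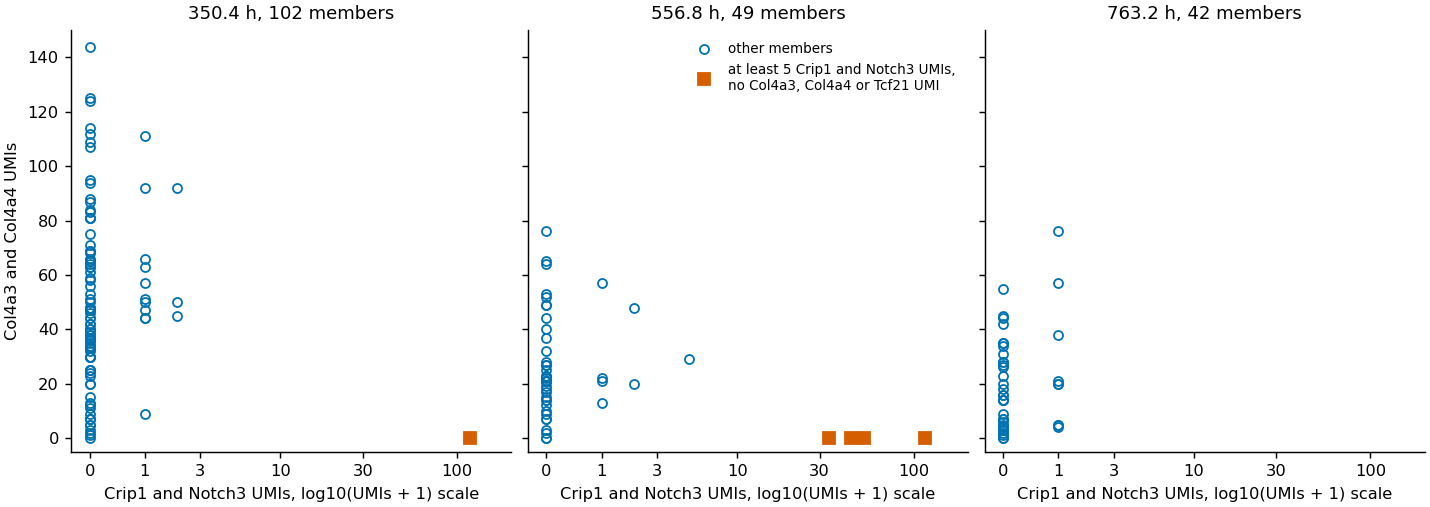
Each point is 1 member: Crip1 and Notch3 UMIs on a log10(UMIs + 1) axis against Col4a3 and Col4a4 UMIs on a linear axis, at 350.4, 556.8 and 763.2 h. The filled squares, 1 at 350.4 h and 4 at 556.8 h, lie far to the right at 0 collagen UMIs, away from the open circles.

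Some genes called lower in the step to 556.8 h did not depend on these members. Stc2, a relative of Stc1, stood at 48.9, 64.8, 70.2, 13.9 and 19.9 CPM, Tmem100, a membrane protein that BMP signals switch on, at 167, 81.2, 132, 34.7 and 67.5 CPM, and Fbxo32, a muscle ubiquitin ligase known as atrogin, at 365, 493, 352, 122 and 159 CPM. Without the 4 members their 556.8 h levels were 15.4, 33.4 and 131 CPM. Each was lower at both late times than at 350.4 h.

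Among single members, thinned to 1000 UMIs, the nuclear RNA Malat1 was the most uneven gene in each library by its variance to mean ratio, from 12.9 at 144 h to 31.8 at 350.4 h, against a median of 1.10 to 1.26 over all genes considered. Apoe, Ftl1 and Col1a1 came next at 0 h and Jun and Fos at 144 and 350.4 h. Spermatid genes followed in the last 2 libraries, Prm1 and Tnp2 at 556.8 h and Tnp2 and Tnp1 at 763.2 h. At 0 h Apoe, a lipid carrier made by macrophages and many other cells, had 0 UMIs in 74.7% of the thinned members and 24 UMIs in 1 of them. At 350.4 h Sct was among the 5 most uneven genes, with 0 UMIs in 29.4% and up to 10 UMIs in a member.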

How the data were processed

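For each of 5 whole-testis libraries the authors deposited a matrix of UMI counts over 27998 features. Per the file headers, Cell Ranger 3.0.2 wrote them. The submitters' processing notes name mm10 and Seurat 4.3.0.1 with no role for either, and how reads were aligned or cells called is not given in the sources used here. Groups came from the sample titles, and 0 columns of per-sample values were left unused. No sample could be left out in turn, since each time had 1 library.

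Members were taken by the rule in the report and their counts summed per library with Python 3.11.15, numpy 2.4.6, scipy 1.17.1 and pandas 2.3.3. CPM intervals are exact Poisson, ratio intervals exact conditional binomial and share intervals Clopper-Pearson, all at 95%. PCR and capture noise beyond counting is not covered. No test was made, and calls rest on a 2-fold ratio, with 3 UMIs in place of 0. The ratio and its interval were tested on simulated counts. No doublet caller was run: the Rgs5 and Sertoli limits of the rule, and an alternative without members holding over 1% of another class's markers, stand in for one.

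Named genes were up to 10 higher and 10 lower per comparison, taken in order of the interval end that lies closer to 1. A gene needed UMIs in at least 5 members and 2 times the CPM of the other barcodes in the higher library, and an interval wholly beyond 2-fold. Mitochondrial, ribosomal protein and haemoglobin genes, unnamed gene models and the 8 rule genes were left out. Also named were 15 genes shared by members, up to 5 uneven genes per library and members of 16 gene lists, whose examples were picked after their values were seen. Members and lists were chosen with earlier results of these data known. Alternatives varied the limits, scaling, weighting, gene filter and free RNA. Promoter windows came from RefSeq, build GRCm38.p6.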

Additional observations from a re-analysis of the deposited data

How the results depend on the processing

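No paired analysis was possible because each time had 1 library. Of the settings, 3 were chosen after seeing the data: at least 5000 UMIs, free RNA scaled to the germ markers, and leaving out the Crip1 and Notch3 members. The 5 member shares kept their order under the settings tried, except with 4 rule genes, where 0 h (4.40%) lay below 144 h (5.80%). At 0 h the share was 6.02% with rule genes at 0.6% of UMIs, 6.91% with 0 UMIs of Rgs5, Sox9 and Cldn11, 9.01% from 5000 UMIs, 7.10% without members over 1% of another class's markers, and 5.40% with barcodes thinned to 1000 UMIs. At 144 h it was 7.11% from 2000 UMIs, 8.68% under 10% mitochondrial UMIs, 5.12% with 0 UMIs of those 3 genes, 7.75% from 5000 UMIs and 4.82% thinned. At 350.4 h it was 2.88% from 2000 and 3.48% from 5000 UMIs. At 556.8 and 763.2 h it was 0.825% and 0.786% from 5000 UMIs, and 0.309% and 0.166% without members over 1% of another class's markers. With a gene filter of 10 UMIs and 20 CPM the counts higher and lower were 290 and 181 at 144 h, 297 and 174 at 350.4 h, 1494 and 544 at 556.8 h, 476 and 657 at 763.2 h, and 1606 and 1075 between the ends, since more genes entered. Higher genes at 556.8 h numbered 318 of 2764 without members over 1% of another class's markers and 58 of 2426 after germ-scaled removal of free RNA. At 763.2 against 556.8 h 29 of 2027 were higher from 5000 UMIs and 36 of 1259 after that removal. Without the Crip1 and Notch3 members 75 of 2159 were lower. Between the ends the removal left 189 of 1851 higher. Leaving out members over 1% of another class's markers left 19 at 763.2 h, under the minimum of 20, so its steps gave no count. Of the named and listed genes past 2-fold, 21 of 67 ratios moved by over 1.5 times under some setting at 144 h, 16 of 47 at 350.4 h, 35 of 55 at 556.8 h, 18 of 42 at 763.2 h and 53 of 125 between the ends. Signs reversed for 12 log2 ratios. With every member weighing the same, Dazl gave -0.073 and Sycp3 -0.058 at 144 h. At 350.4 h Clu gave 5.55 and Cst12 2.02 with 5% free RNA removed, and 4.11 and 3.87 with the germ-scaled amount. In the main setting they gave -1.25 and -1.20. These swings came with the subtraction and are not read as higher levels. At 556.8 h Dnajb1 gave -1.42, Ldhc -1.13 and Odf2 -1.82 with the germ-scaled amount, and Col18a1 -1.14 and Mustn1 -0.99 without the Crip1 and Notch3 members, and without these Crip1 gave 0.22 at 763.2 against 556.8 h. Between the ends Cst12 gave 6.36 and Inha 5.51 with the germ-scaled amount, against -1.25 and -1.45 in the main setting, and the same limit holds. No cause was tested. Depth limits the last 2 times, where 30 UMIs correspond to 69.3 and 119 CPM.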
